A study of Mus musculus with 10 samples.

Results

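A set of 10 genes of the trophoblast lineage was examined, out of 49997 genes in the RefSeq table of GRCm38, the assembly that mm10 corresponds to. They were Cdx2, Elf5, Tfap2c, Fgfr2, Tead4, Hand1, Ets2, Krt8, Krt18 and Plet1, chosen by name, and each cytosine position inside a gene or within 2000 bp of its ends was taken. This gave 1314 of the 2137824 positions in the table. Reduced representation bisulfite sequencing was used, which samples mainly CpG-rich DNA and reads unmethylated cytosines as thymines. Embryos of mice at E7.5 gave 10 samples, 5 titled control and 5 titled arsenic. The labels give no dose, route, strain or sex, no number of embryos per sample, and do not say whether extraembryonic tissue was kept.

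The counts carry only the numbers 1 to 10, and none of these could be matched to 1 sample. Each numbered set is called a column here. Control and arsenic were therefore not compared, the columns are not replicates of a group, and values over them are given as lowest, median and highest with no test. Levels are methylated calls as a percentage of all calls, and where no column is named the calls of the 10 columns were summed. Median depth per column at the 1314 positions ranged from 24.5 to 48 reads. Both strands were read at 467 CpGs of these genes, and their levels differed by a median of 1.20 percentage points. This median rests largely on CpGs with little methylation, since 61.0% of the 1314 positions were methylated at under 10%.

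Trophoblast is the first lineage to separate from the embryo and later forms most of the fetal part of the placenta. Tead4, a partner of the Hippo effector Yap, lies upstream of the homeobox factor Cdx2 in the outer cells of the blastocyst. Cdx2, Elf5 and Eomes then sustain one another in trophoblast stem cells, which depend on FGF signals from the embryo. Elf5 is the classical case of a lineage gene gated by DNA methylation, since its promoter is methylated in embryonic stem cells and unmethylated in trophoblast stem cells. A whole conceptus at gastrulation holds embryonic and extraembryonic cells, and a level over all cells does not show which of them carry the methylation.

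The letters before 3 starts, taken from RefSeq (GRCm38.p6), show how differently these genes are built. Of the 10 genes, 7 had an entry in the promoter table used here, with 2 starts for Elf5. Each 300-base entry, from 250 bases before to 50 after a start, was searched for the letters CG, which read the same on both strands. The outer Elf5 start held 3 CpGs and the start inside the gene 10, against 17 at Krt18 and 30 at Ets2, and the median over 32851 entries was 7. Plet1 held 5, Krt8 6, Fgfr2 4 and Cdx2 18. The letters CCGG, also alike on both strands, and each holding 1 of these CpGs, were present in 52.8% of all entries, with 5 matches at Ets2, 2 at Krt18, none at Cdx2 and 1 at each of the other starts. The 250 bases before each Elf5 start and before the Krt18 start are given 5′ to 3′ with the CpGs measured in these libraries in capitals, because the measured CpGs of these 2 genes stood at contrasting levels.
Elf5 outer start, chr2:103411848-103412097, + strand: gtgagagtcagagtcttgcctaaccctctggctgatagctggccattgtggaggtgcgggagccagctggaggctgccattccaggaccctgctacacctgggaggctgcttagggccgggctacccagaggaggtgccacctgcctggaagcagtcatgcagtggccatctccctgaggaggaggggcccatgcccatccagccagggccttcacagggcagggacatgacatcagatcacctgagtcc
Elf5 inner start, chr2:103423818-103424067, + strand: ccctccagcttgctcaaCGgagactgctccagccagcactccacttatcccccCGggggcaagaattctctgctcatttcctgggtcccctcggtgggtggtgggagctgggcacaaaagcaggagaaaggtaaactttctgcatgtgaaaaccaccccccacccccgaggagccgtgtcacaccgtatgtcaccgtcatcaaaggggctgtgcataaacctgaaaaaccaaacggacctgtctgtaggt
Krt18 start, chr15:102027966-102028215, + strand: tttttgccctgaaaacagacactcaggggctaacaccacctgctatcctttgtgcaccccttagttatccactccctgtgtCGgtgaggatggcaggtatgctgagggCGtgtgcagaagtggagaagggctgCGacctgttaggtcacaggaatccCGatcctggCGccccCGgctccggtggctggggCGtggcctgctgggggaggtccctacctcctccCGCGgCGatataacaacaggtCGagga
None of the CpGs before the outer Elf5 start was measured, 2 of 8 before the inner start were, and 11 of 12 before the Krt18 start were. Over the whole 300-base entries, the measured positions had a level of 27.2% at the inner Elf5 start and 0.911% at Krt18.

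A stretch of 30 bases close to the Plet1 start is shown in the same way, since the measured CpGs of this gene began just after the start.
Plet1, chr9:50494545-50494574, + strand: cccaaacagcccgggaccatgctgtCGctc
In the 300-base entry of Plet1 the level was 26.7% at the single measured position.

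Each gene was divided into its ends, within 2000 bp on either side of a gene boundary, and its body, the inside farther than 2000 bp from both boundaries. An end is called the start or the far end where the promoter table gives the strand, and the lower-coordinate or higher-coordinate end for Tfap2c, Tead4 and Hand1, which had no entry. Of 30 such regions, 23 had at least 3 measured positions and the other 7 had none. Ends of these genes were mostly lowly methylated and bodies were not. Of 15 measured ends, 10 had a level under 20%, against 53.8% of the 22236 measured ends of all autosomal protein-coding genes. Their median level was 5.76%, against 14.6% over all ends, but it fell to 1.69% over 9 ends with windows of 1000 bp and to 3.71% over 5 ends counted outside the gene only. The median over all ends is given for the main windows of 2000 bp only. Among starts alone, 5 of 6 were under 20%, against 75.9% of all measured starts, with a median of 2.86% beside 4.53%. Of 3 far ends 1 was under 20%, against 15.5% of all far ends. Of 8 bodies, 2 were under 20%, against 5.37% of all bodies, with a median of 54.1% beside 61.7%. These shares describe the genes and were not tested. Over single positions, 61.0% of those at the 10 genes were methylated at under 10%, against 30.8% of all autosomal positions, and 8.45% at above 80%, against 10.3%. These sets are unlike, since all autosomal positions include those far from genes. Cdx2 and Tfap2c also weigh heavily, with 217 and 293 of the 1314 positions. At the Cdx2 start 117 of 118 positions were under 10%, and in the Tfap2c body 179 of 219.

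**Figure D1:**
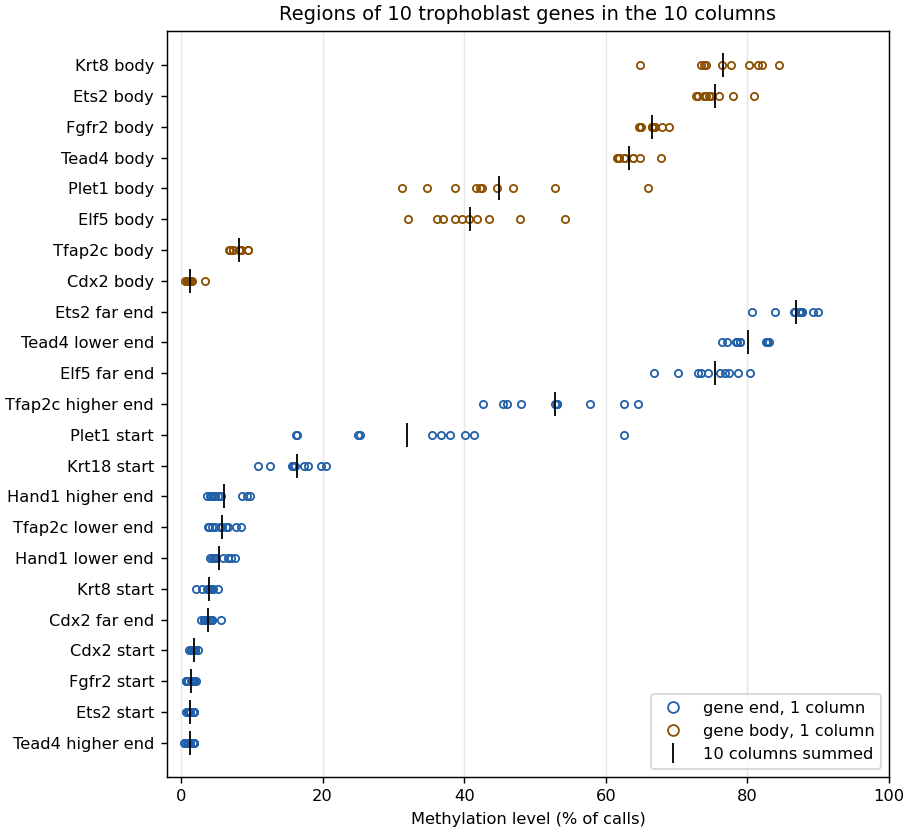
Methylation level, in percent of calls, of the 23 measured regions of the 10 genes. Circles are the 10 columns (blue, gene ends; brown, gene bodies) and black bars the summed calls. Plet1 start and Plet1 body spread most widely, and the starts of Ets2, Fgfr2 and Cdx2 lie under 3% in each column.

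**Figure D2:**
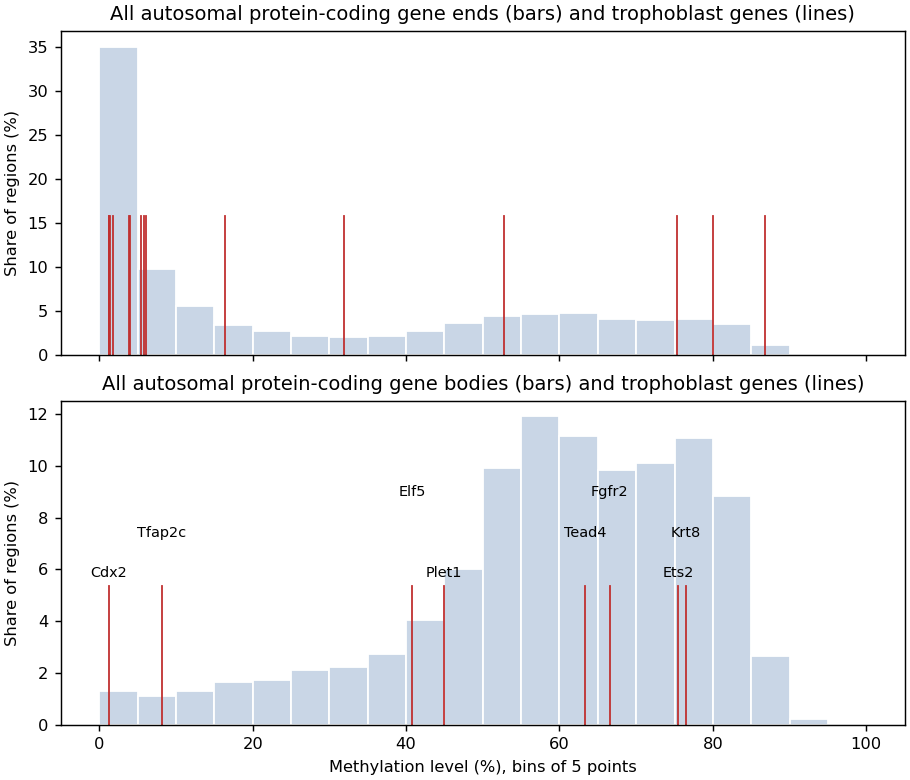
Share of all autosomal protein-coding gene ends (top) and bodies (bottom), in percent, by methylation level in bins of 5 percentage points. Red lines are the ends and bodies of the 10 trophoblast genes, with Cdx2 and Tfap2c at the lower edge of the bodies and 10 of 15 ends under 20%.

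Elf5, an ETS factor that maintains trophoblast stem cells, was methylated at intermediate levels along its first part and highly methylated at its far end. The gene lies on chromosome 2 from 103412098 to 103450989, and 40 of its positions were measured. Its body had a level of 40.8% (95% Wilson interval 40.0 to 41.6%, 14949 calls), and 14.7% of all protein-coding gene bodies had a lower level. The lowest column was at 32.0%, the median at 40.1% and the highest at 54.2%. Its far end had 75.4% (74.0 to 76.7%), with columns from 66.8% to 80.4%, median 75.3%, and the body was below the far end in each of the 10 columns by at least 24.5 percentage points. The Wilson intervals, here and below, cover counting error only and are too narrow, since reads that cover several positions give calls that are not independent, and no molecular identifiers are named.

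No position was measured within 2000 bp of the outer Elf5 start, so nothing can be said of that promoter. The inner start, whose letters are printed above, lies 11970 bp farther inside the gene at position 103424068. Within 2000 bp of it 8 positions were measured, 196 to 345 bp before and 344 to 447 bp after it. Their level was 34.2% (32.5 to 35.8%, 3200 calls), with columns at 22.9% for the lowest, 33.8% for the median and 40.3% for the highest. All 10 columns were thus between the unmethylated and the fully methylated state. Levels between 20 and 80% were found at 23.6% of all measured starts of protein-coding genes, and levels above 80% at 0.426%. Those starts are at gene boundaries, however, while the 8 positions here lie in the gene body. Of all gene bodies, 5.37% were under 20% and 11.7% above 80%, so most bodies also had a level in between.

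Neighbouring positions with gaps of at most 100 bp were joined into runs, since the same reads often cover them. The main run of Elf5, 21 positions from 8851 to 9104 bp inside the gene, had a level of 41.0% (40.0 to 42.1%). At its CpGs read on both strands the - strand was higher each time. The levels were 43.7% against 40.3% at position 103420949 and 48.9% against 37.3% at position 103421197, and the cause was not tested. The columns of this run went from 26.3% in column 4 (23.9 to 28.9%) over a median of 38.6% to 63.6% in column 2 (60.2 to 66.9%). The runs on either side of the inner start were at 33.2% (4 positions, columns 17.0 to 44.6%) and 35.2% (4 positions, columns 20 to 50.8%). Column 2 was highest at the main run and lowest, with 20%, at the run behind the inner start, so it was not high along the whole gene. The run near the far end, 5 positions, was at 75.6% with columns from 67.0% to 79.9%.

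Plet1, a surface protein of the extraembryonic ectoderm and placenta, was the only start above 20% among the 6 measured. It lies on chromosome 9 from 50494525 to 50505639, and its 19 measured positions are also inside Plet1os, a long non-coding RNA gene that overlaps it. The start had a level of 31.9% (29.8 to 34.0%, 1846 calls) over 9 positions from 46 to 356 bp inside the gene, and 81.7% of all measured starts had a lower level. The lowest column was at 16.3% (column 5, 10.8 to 23.8%), the median at 36.1% and the highest at 62.6% (column 2, 53.2 to 71.2%). Columns 5 and 6 were the lowest, both at 16.3%, and column 2 stood above the next column, at 41.4%. The start had the fewest calls of all measured regions and gave no level when 20 reads were asked of every column. Its single columns, column 2 among them, therefore rest on few reads. The Plet1 body, 10 positions in 2 runs, had a level of 44.9% (43.0 to 46.8%). There the columns ran from 31.1% in column 10 over a median of 42.4% to 66.0% in column 1, and the runs were at 54.9% and 34.4%. The start was below the body in 8 of 10 columns.

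Levels at the Elf5 body and at both measured regions of Plet1 differed more between columns than at most comparable regions, and the Elf5 far end did not. The Elf5 body spanned 22.1 percentage points between its lowest and highest column. Among 4175 protein-coding gene bodies with a level between 20 and 80% and a number of calls within a factor of 2 of it, the median span was 9.79 points and 0.862% had a wider one. The Plet1 start spanned 46.4 points, against a median of 19.9 points at 3178 such gene ends, of which 0.692% were wider. For the Plet1 body the span was 34.8 points, against a median of 16.8 points, with 2.08% wider. Column 2 carried much of this. Without it the span was 15.8 points at the Elf5 body, with 7.45% of bodies wider, and 25.1 points at the Plet1 start, with 22.7% of ends wider, whereas the Plet1 body kept 34.8 points, with 1.62% wider. Column 2 did not stand apart over the genome, its mean level of 41.2% over autosomal positions being the fourth highest of a range from 40.1% to 42.7%. The Elf5 far end spanned 13.6 points, against a median of 16.1 points, with 69.3% of ends wider. At the other 5 regions of these genes between 20 and 80%, 14.4% (Tfap2c higher-coordinate end) to 93.7% (Fgfr2 body) of comparable regions had a wider span. The compared regions were matched on level and calls, but not on the number of positions or runs, and calls of the same reads are not independent. The main run gave 9041 of the 14949 calls of the Elf5 body, and the Plet1 start is a single run with 1846 calls over all columns. Whether this widened their spans was not tested. No column is tied to a sample, so whether the spread follows the groups was not tested.

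**Figure D3:**
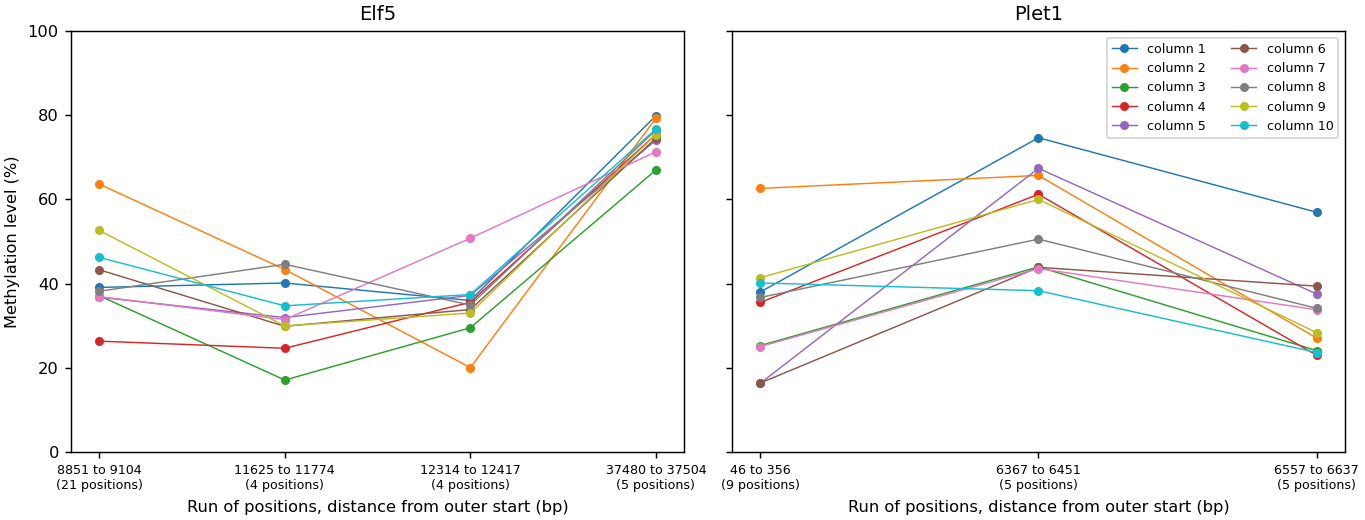
Methylation level, in percent, of runs of at least 3 positions in Elf5 (left) and Plet1 (right), by distance from the outer gene start in bp. Each coloured line joins the values of 1 column and does not imply values between runs. Column 2 is highest at the first run shown for each gene, at 63.6% and 62.6%, and lowest, at 20%, at the Elf5 run from 12314 to 12417 bp.

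Cdx2, the homeobox factor of the trophectoderm, was nearly unmethylated over most of its measured length. It lies on chromosome 5 from 147300900 to 147307249 and 217 positions were measured. Its start had a level of 1.78% (1.66 to 1.89%, 118 positions), with columns from 1.19% to 2.42%, median 1.79%. Its body, 21 positions, had 1.24% (1.02 to 1.51%), with columns from 0.548% to 3.43%, median 1.18%, and 0.378% of all protein-coding gene bodies had a lower level. The far end was at 3.80% (3.61 to 4.01%, columns 2.77 to 5.62%), lower than all but 6.14% of far ends. The body was below the start in 9 of 10 columns, although the ranges overlapped. The body positions lie next to the start window in a single run, and with windows of 1000 bp the body, then 53 positions, was at 5.82%, above the start at 0.915%. The far end was at 1.69% with those windows and at 0.949% when counted outside the gene only.

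A methylated stretch interrupted this pattern. Near the end of the Cdx2 gene, a run of 10 positions between 147301968 and 147302152 was methylated at 19.2% (18.2 to 20.3%), with columns from 13.9% to 24.1%, median 18.4%. Beyond the gene, a run of 67 positions from 147299370 to 147300166 was at 0.917%, with columns from 0.531% to 1.21%. The columns of the methylated stretch and of that run did not overlap. A single position nearer the gene, 147300337, was at 5.04%, with columns from 0% to 34.6%, and these overlapped both.

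Tead4, the DNA-binding partner of Yap, changed from highly methylated to unmethylated along its length. The gene occupies 128227143 to 128300813 of chromosome 6. The lower-coordinate end was at 80.03% (79.0 to 81.0%, 19 positions, columns 76.4 to 83.0%, median 78.9%). The body was at 63.3% (62.8 to 63.8%, 55 positions, columns 61.6 to 67.8%, median 62.7%), and the higher-coordinate end at 1.22% (1.08 to 1.38%, 58 positions, columns 0.398 to 1.83%, median 1.27%). The order was the same in each of the 10 columns, and the 3 sets of columns did not overlap. Within the body the lowest runs lay in its last part. A run 56387 to 56402 bp from the lower-coordinate end was at 85.2%, one at 65094 to 65192 bp at 47.96%, and one at 69427 to 69627 bp at 12.8%.

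Fgfr2, the receptor through which FGF from the embryo sustains trophoblast stem cells, showed the same contrast. Its coordinates are 130162451 to 130266808 on chromosome 7. The start had a level of 1.36% (1.19 to 1.55%, 39 positions from 715 to 1678 bp inside the gene), with columns from 0.683% to 2.10%, median 1.499%. The body was at 66.5% (66.2 to 66.9%, 168 positions), with columns from 64.8% to 68.9%, median 66.6%. In each column the body exceeded the start by at least 63.0 percentage points. Runs at 2638 to 2744 and 2861 to 2930 bp from the start were at 15.9% and 12.2%, and those from 5014 to 5151 and 5699 to 5946 bp at 39.5% and 59.3%. From 18164 bp inward, runs of at least 3 positions lay between 54.9% and 85.5%.

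Ets2, an ETS factor needed for trophoblast development, had a nearly unmethylated start and a highly methylated far end. On chromosome 16 it extends from 95702407 to 95721049. The start was at 1.28% (1.14 to 1.43%, 54 positions, columns 0.777 to 1.89%, median 1.20%). The body was at 75.5% (75.0 to 75.9%, columns 72.8 to 80.9%, median 74.4%) and the far end at 86.9% (86.1 to 87.5%, 19 positions, columns 80.6 to 89.9%, median 87.4%). Of all far ends, 98.3% had a lower level. The far end exceeded the body in each column, by 6.74 to 15.0 points.

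Tfap2c, which encodes the factor AP-2 gamma of trophoblast and germ cells, had a low level over the summed calls of its body, but not along all of it. It is found on chromosome 2 from 172545678 to 172558622 and had 293 measured positions, the most of the 10 genes. The body was at 8.14% (7.96 to 8.33%, columns 6.80 to 9.50%, median 8.26%), and 2.01% of gene bodies had a lower level. The lower-coordinate end was at 5.76% (5.48 to 6.06%, columns 3.86 to 8.51%, median 5.68%) and the higher-coordinate end at 52.8% (51.3 to 54.2%, columns 42.6 to 64.6%, median 52.9%). With windows of 1000 bp the lower-coordinate end was at 12.2%, over 15 positions. The body was not uniform. A set of 4 runs from 4037 to 6096 bp lay between 1.05% and 2.48%, and from 8432 to 8834 bp a run of 28 positions was at 42.5% (columns 30.1 to 53.2%). The later runs of the body, of 9 positions or fewer, lay between 26.3% and 56.4%.

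Hand1, a helix-loop-helix factor of trophoblast giant cells, was lowly methylated at both ends. It lies on chromosome 11 from 57828713 to 57832147 and is shorter than 4000 bp, so each position was given to the nearer end and no body remained. The lower-coordinate end was at 5.37% (5.16 to 5.59%, 106 positions, columns 4.14 to 7.59%, median 4.93%). The higher-coordinate end was at 6.03% (5.58 to 6.52%, 28 positions, columns 3.72 to 9.78%, median 4.96%). These positions lie outside Hand1, from 57833722 to 57834030, and inside the non-coding gene Gm32915. Each end was the lower one in 5 columns. Outside the gene, a run of 85 positions from 57827214 to 57828079 was at 2.31%, and the single position 57826863, farther from the gene, was at 41.6%. With windows of 1000 bp the lower-coordinate end was at 2.37%, and the higher-coordinate end had no position.

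The keratins Krt8 and Krt18 pair into the intermediate filaments of simple epithelia such as trophoblast, and lie near each other on chromosome 15. The Krt8 gene extends from 101996711 to 102004342. Its start was at 3.95% (3.72 to 4.19%, 49 positions, columns 2.13 to 5.28%, median 4.05%), all measured 1107 to 1803 bp inside the gene. Its body, 9 positions only, was at 76.5% (75.0 to 78.0%, columns 64.8 to 84.5%, median 77.0%), and exceeded the start in each column. With windows of 1000 bp the start positions count as body, which then had a level of 11.1%.

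Krt18 extends from 102028216 to 102032026. The level of its start was 16.4% (16.0 to 16.8%, 86 positions, columns 10.9 to 20.5%, median 16.0%), which averages over a steep gradient and was 3.50% with windows of 1000 bp. From 102027938 to 102028708, across the start, 56 positions were at 1.94% (columns 1.16 to 2.91%). From 608 to 682 bp the level was 11.2% (columns 7.87 to 14.1%), and from 1209 to 1341 bp it was 37.8% (columns 26.1 to 47.4%). The columns of these 3 runs did not overlap. Upstream, 3 positions from 102026847 to 102026860 were at 25.5%.

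Ordered by level in windows of 2000 bp, the starts were Ets2, Fgfr2, Cdx2, Krt8, Krt18 and Plet1. With windows of 1000 bp the first 3 turned round, to 0.915% at Cdx2, 1.17% at Fgfr2 and 1.25% at Ets2, and the Krt8 start had no position. Column ranges of Ets2, Fgfr2 and Cdx2 overlapped, as did those of Cdx2 with Krt8 and of Krt18 with Plet1, whereas those of Krt8 and Krt18 did not. Bodies outside the windows of 2000 bp were ordered Cdx2, Tfap2c, Elf5, Plet1, Tead4, Fgfr2, Ets2 and Krt8, of which Krt8 fell to 11.1% with windows of 1000 bp, and the neighbours in this order that did not overlap were Cdx2 with Tfap2c, Tfap2c with Elf5, and Fgfr2 with Ets2.

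**Figure D4:**
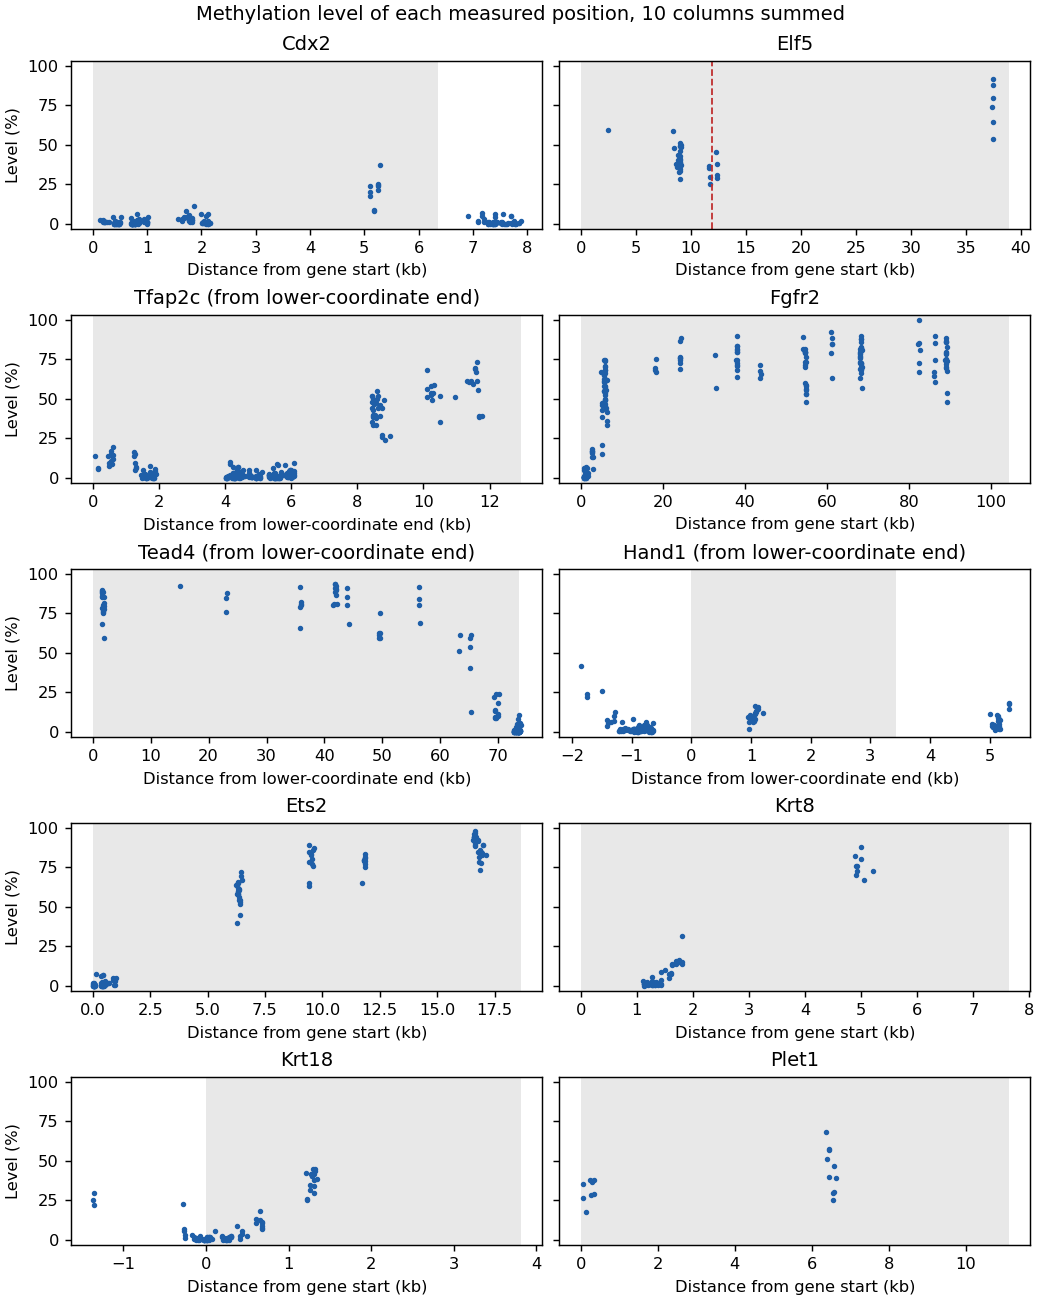
Methylation level, in percent, of each measured position of the 10 genes with the calls of all columns summed, against the distance in kb from the gene start, or from the lower-coordinate end for Tfap2c, Tead4 and Hand1. Grey marks the gene and the dashed line the inner Elf5 start. Levels at the measured positions nearest the starts of Fgfr2, Ets2, Krt8 and Krt18 are low and rise into the gene. For Fgfr2 these begin only 715 bp and for Krt8 only 1107 bp inside the gene. The first measured positions of Plet1, from 46 bp inside the gene, have intermediate levels. Those of Elf5 do too, but begin only 2466 bp inside the gene, so they are not near its outer start.

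Other genes of the pathway were set beside these through 4 lists, whose counts are read against the 53.8% of all ends under 20% and the median of 14.6% over all ends. Of 36 further trophoblast genes, 29 were measured at 54 ends, of which 27 (50%) were under 20%, 26 between 20 and 80% and 1 above 80%, with a median of 16.8%. The lowest were the starts of Id2 at 0.747% and Cited2 at 0.880%, and the highest the far ends of Pcsk6 at 86.7% and Lgals3 at 79.6%. Of 14 epiblast genes, 13 were measured at 22 ends, of which 16 (72.7%) were under 20%, with a median of 9.79%. In this list Utf1, a chromatin factor of pluripotent cells, had 1.21% at its start and Dnmt3b, a DNA methyltransferase, 82.8% at its far end over 3 positions. Lin28a had 70.8% at its far end and Sall4 1.30% at its higher-coordinate end.

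Hippo pathway genes, which act with Tead4, were measured for 9 of 9 names at 13 ends, of which 9 (69.2%) were under 20%, with a median of 3.03%. The starts of Amotl2 and Lats1 were at 0.885% and 1.06%, and the far ends of Yap1 and Lats2 at 85.7% and 81.7%. The last list held 26 names, which were relatives of the 10 genes and the ligand Fgf4. Of these, 24 autosomal ones were looked up and 23 measured at 29 ends, of which 21 (72.4%) were under 20%, with a median of 11.3%. Elf1 and Elf2 had starts at 1.17% and 1.31%, and Tfap2e and Krt19 reached 69.9% and 66.8%. Some genes are on more than 1 of these lists.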

How the data were processed

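Per the labels' protocols, phenol-chloroform was used for the embryos' DNA and an NEBNext Ultra II kit for the libraries. Trim Galore, Bismark, methylKit and mm10 are named in the submitters' processing notes, with no version or setting. The deposited table holds raw counts for each cytosine position and numbered column, which are coverage, methylated calls and unmethylated calls, per the file headers. No position had fewer than 10 reads in any column, so regions covered poorly in any library are missing. Of 2137826 rows, 2 repeated a position and were left out.

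The numbers 1 to 5 occur in titles of both groups and 6 to 10 in none, and column order was not used, so the planned permutation test of arsenic against control was not run. Strand came from the RefSeq promoter table. Levels are summed methylated calls over summed coverage, with 95% Wilson intervals, and were checked on simulated calls. The 10 genes and the lists were chosen with earlier results of these data known. Each of the 10 genes is named, and the 2 lowest and 2 highest ends of each list. The rule naming genes with a pattern like the Elf5 start could not be applied, as no position was measured there. The alternatives were a window of 1000 bp, ends outside the gene only, 20 reads per column, removal of the 0.1% most covered positions, equal weight of positions, the median over columns, a minimum of 1 or 5 positions, and leaving out each column. Python 3.11.15, numpy 2.4.6, pandas 2.3.3 and scipy 1.17.1 were used.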

Additional observations from a re-analysis of the deposited data

Results flagged for a closer look

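By Dixon's test, 1 column stood out in 2 of the 23 regions of the 10 genes, where chance gives about 1 in 20. The Cdx2 body was at 3.43% in column 9, and the next column was at 1.53% and the lowest at 0.548%. The Tead4 body was at 67.8% in column 10, and the next column was at 64.8% and the lowest at 61.6%. The columns hold samples of both groups, so a group difference cannot be told apart from a single library here.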

How the results depend on the processing

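Of 15 gene ends, 10 were under 20%. Fewer ends were measured with windows of 1000 bp, where 8 of 9 were under 20%, with 20 reads per column, where 10 of 13 were, and with ends outside the gene only, where 5 of 5 were. The 53.8% of all ends under 20% holds for the main setting, and no share over all genes is given at these settings. The other alternatives gave 10 of 15. The median end level moved by more than its SD over the columns with 1000 bp windows, to 1.69% over 9 ends, and with ends outside the gene only, to 3.71% over 5 ends. Leaving out each column gave 10 ends each time and medians from 5.45% to 5.99%, and none of 230 single region levels moved by more than the SD over the columns. Windows decided several single values. With 1000 bp windows 11 of 17 region levels moved, among them the Krt18 start, from 16.4% to 3.50%, and the Krt8 body, from 76.5% to 11.1%, because the stretch 1107 to 1803 bp from its start then counted as body. The Elf5 body went to 47.99% when the positions near its far end were included. With 20 reads per column, 4 of 20 levels moved. The Plet1 start, the Plet1 body and the Krt8 body gave no level at this setting, so it did not check them. The Tead4 lower-coordinate end, then 3 positions, fell below 80%, to 73.1%. It was also below with the median over columns, at 78.9%, and without column 1, 4, 6 or 10, at 79.6 to 79.8%. The span over columns without column 2 was chosen after seeing the data. No paired analysis was possible because the columns carry no sample. The replicate block and the leaving out of replicates in a group comparison were not run for the same reason. Depth limits single positions most, as the lowest column median was 24.5 reads.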

Other observations

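One CpG of the 10 genes had strands that differed by more than 20 percentage points. In Tead4, at position 128292484 of chromosome 6, the level was 12.6% over 413 reads of the + strand and 61.6% over 432 reads of the - strand at the paired cytosine. The + strand was lower in each of the 10 columns, with columns from 2.13% to 28.6% on the + strand and from 47.6% to 75.9% on the - strand. The cause was not tested.

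Column 1 was the highest column in 8 of the 23 regions and column 5 the lowest in 7. Column 1 also had the highest mean level over autosomal positions, 42.7%, while that of column 5, 40.7%, was the seventh highest.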
